A study of Sus scrofa with 12 samples.

Results

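The genes described here encode enzymes that add or remove chemical marks on histones, together with the ATPases and subunits of chromatin remodelling complexes. They were chosen by symbol: the histone deacetylase (HDAC), lysine demethylase (KDM), lysine methyltransferase (KMT and SETD), lysine acetyltransferase (KAT), protein arginine methyltransferase (PRMT) and SMARC remodelling families, plus EP300, CREBBP, EZH2, EED and SUZ12. The rule found 73 of the 31781 genes in the expression table. Of these, 54 passed the filter on low values, which kept genes that reached an FPKM of 1 in 3 or more libraries. FPKM is the number of sequenced fragments scaled to gene length and library size, so levels can be compared between genes.

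Expression was measured in pig (Sus scrofa) blastocysts, the stage at which an embryo has an outer trophectoderm and an inner cell mass. All embryos, controls included, came from parthenogenetic activation, in which an egg starts to develop without sperm, so every library lacks a paternal genome. The groups were fresh control (3 libraries), vitrification (2), vitrification I (3) and vitrification II (3). Vitrification is cooling so fast that water turns to glass rather than ice. Liquid helium appears in the title of the series, and which of the 3 vitrified groups it was used for, or how their procedures differed, is not given in the labels. The labels name blastocysts as the source, while the protocol speaks of sorted cells, and nothing states that libraries of a group came from separate embryos. The p-values therefore reflect the spread among these libraries alone, and that spread may be technical.

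Histone acetylation opens chromatin and is set by acetyltransferases and removed by deacetylases. Methylation of histone lysines can accompany active genes, as on H3K4 and H3K36, or silent ones, as on H3K27, where polycomb repressive complex 2 (PRC2) is the writer. Remodelling complexes use ATP to slide or evict nucleosomes. In early embryos these enzymes take part in genome activation and in the separation of trophectoderm from inner cell mass.

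The libraries differed in more than these genes. Transcripts of the mitochondrial genome held 37.6 to 43.9% of the FPKM in fresh control, 38.7 and 51.8% in vitrification, 43.8 to 64.3% in vitrification I and 16.9 to 22.1% in vitrification II. Genes above 0 numbered 11550 to 14039 in vitrification I and 15383 to 18527 in the other libraries. Of 11 trophectoderm markers, 10 were in the table and above 0 in every library, and their summed FPKM was 10495 to 15527 in fresh control, 6640 and 17030 in vitrification, 2751 to 6060 in vitrification I and 13736 to 22053 in vitrification II. The 3 epiblast markers in the table, of 7 listed, summed to 8.40 to 10.4, 3.80 and 10.4, 1.11 to 4.47, and 37.5 to 93.9 in the same order. Single genes weighed heavily in these sums. KRT8 ranged from 1097 to 18589 and KRT18 from 1088 to 4806, beside 20.9 to 64.9 for GATA3. LIN28A reached 81.6, SALL4 12.2 and NANOG 7.97. Hypoblast markers summed to 27.4 to 42.0, 22.1 and 94.0, 16.8 to 38.0, and 30.9 to 61.0, with overlap between the groups. Among markers of cells that do not belong to the embryo, the leukocyte gene PTPRC and the cumulus genes HAS2 and PTX3 were at 0 in every library, and summed cumulus markers stayed between 0 and 3.90. The leukocyte gene LYZ reached 11.95, and the 4 leukocyte markers summed to 12.7 in fresh control replicate 1 beside 1.42 and 0.758 in the other controls. The erythroid gene HBB ranged from 0 to 10.4, its highest value being in vitrification replicate 2. The mitochondrial shares and the trophectoderm and epiblast sums moved with the groups. The part of these shares and of all marker levels in the results below was not tested. In whole-embryo or few-cell RNA, fewer cells of a type and less RNA per cell cannot be told apart. Sequencing depth is unknown, since the table holds no counts.

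The 73 genes were a small part of the transcriptome in every library. They held 0.0481 to 0.0818% of the FPKM in fresh control, 0.0460 and 0.0723% in vitrification, 0.0339 to 0.0668% in vitrification I and 0.0932 to 0.128% in vitrification II. Vitrification II lay above all other libraries on this scale. With mitochondrial transcripts left out of the total, the shares were 0.0771 to 0.146, 0.0751 and 0.150, 0.0948 to 0.119, and 0.112 to 0.160%, and the groups overlapped. Fresh control replicate 1 stood apart from the other controls, with a summed FPKM of 452 over the 73 genes against 282 and 330.

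EED, a PRC2 subunit that binds methylated H3K27, had the highest level, with a mean FPKM of 34.5 over the 11 libraries. PRMT1, the main asymmetric arginine methyltransferase, followed at 32.7, then the SWI/SNF subunit SMARCE1 at 26.5, PRMT7 at 25.4, and the class I deacetylases HDAC1 at 24.7 and HDAC2 at 21.2. Over the libraries EED ranged from 13.9 to 76.0 FPKM, PRMT1 from 2.57 to 109.9 and SMARCE1 from 16.7 to 38.9, so neighbours in this order did not differ beyond their spread. Mean FPKM was 10 or more for 10 of the 73 genes, from 1 to 10 for 41 and under 1 for 22. The acetyltransferases EP300 and CREBBP, which serve as coactivators at enhancers, had means of 1.61 and 1.71.

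The 19 genes below the filter were 4 deacetylases (HDAC4, HDAC7, HDAC9 and HDAC11), 7 demethylases (KDM2A, KDM3B, KDM4B, KDM5D, KDM6B, KDM7A and KDM8), 5 methyltransferases (KMT2A, KMT2B, KMT5C, SETD1A and SETD1B), PRMT8, SMARCC2 and SMARCD3. PRMT8 was listed at 0 in all 11 libraries, and 12 of the 19 never reached an FPKM of 1, PRMT8 among them. Of the demethylases that oppose PRC2, KDM6A passed and KDM6B did not, with a range from 0 to 0.782. The H3K4 methyltransferases KMT2A, KMT2B, SETD1A and SETD1B were all low, and SETD1A reached 1.04 in vitrification replicate 2. KDM5D, which lies on the Y chromosome, was at 0 in 9 libraries and at 0.223 and 0.0175 in vitrification II replicates 1 and 2. Embryos without a paternal genome have no Y chromosome, so these values cannot be read as its expression in the embryo. Their origin was not tested. The filter lay close to some genes: HDAC5 (mean 0.668) and KAT2B (0.523) were inside with 3 libraries at 1 or more, and KDM3B (0.620), SMARCC2 (0.614), KDM2A (0.536) and KDM8 (0.520) were outside with 2.

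**Figure D1:**
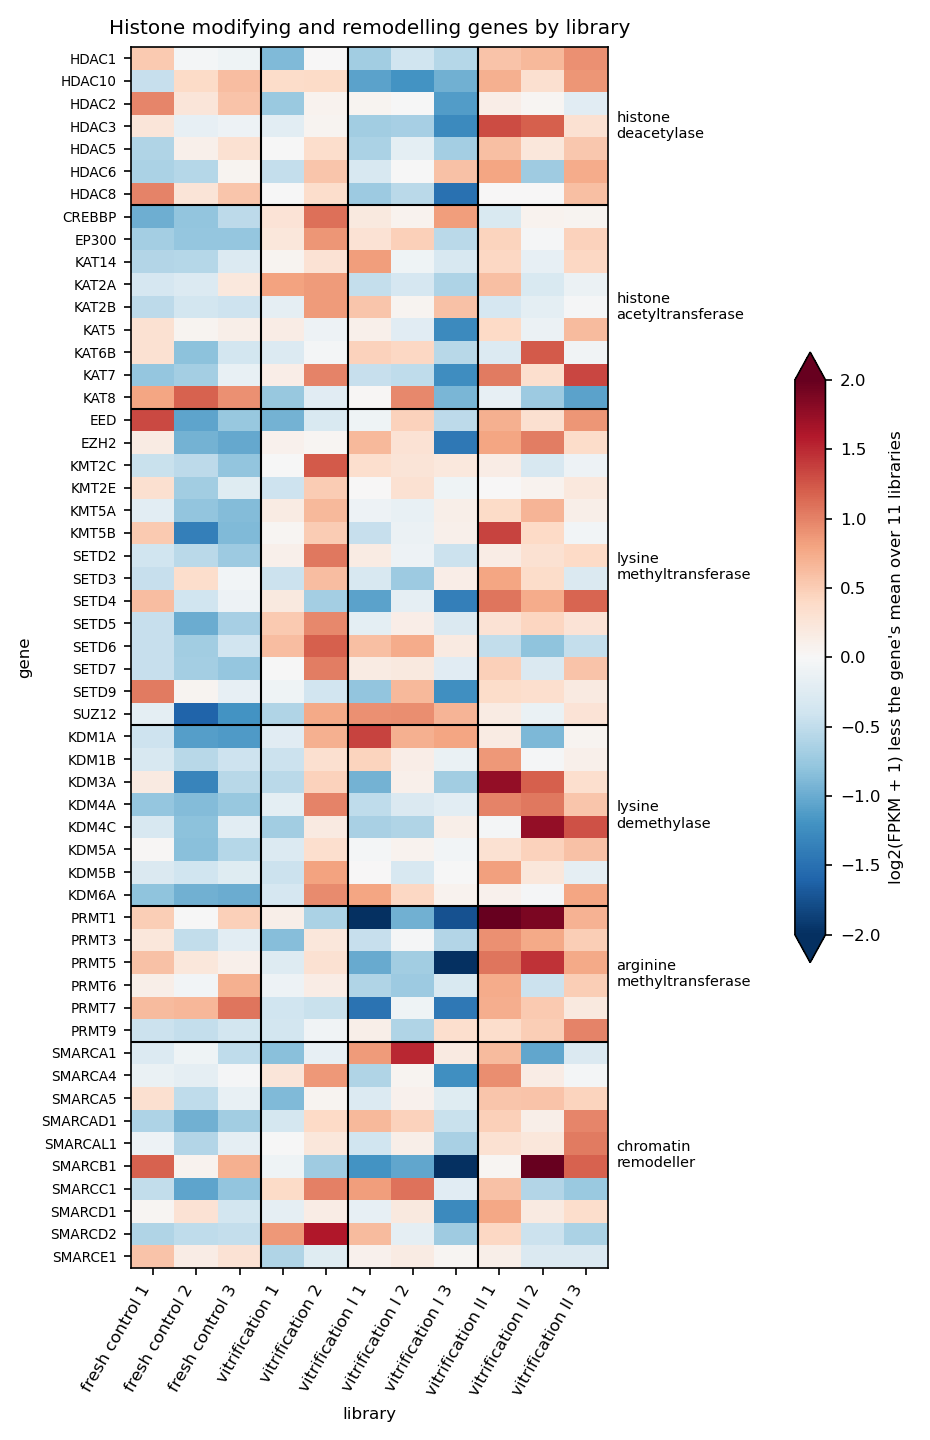
Each row is 1 of the 54 genes that passed the filter, grouped by role, and each column 1 of the 11 libraries, grouped by treatment; the colour is log2(FPKM + 1) less the mean of the gene over all libraries, red above and blue below, with the scale ending at -2 and 2. PRMT1, PRMT5, SMARCB1 and HDAC10 are blue in vitrification I, SUZ12 and KDM1A are red there, and most demethylases are blue in fresh control.

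Each vitrified group was compared with fresh control, and vitrification II with vitrification I, by limma on log2(FPKM + 1) over all 9411 genes that passed the filter. A gene was called at a Benjamini-Hochberg adjusted p under 0.05. The median of all genes was itself shifted, by 0.19, -0.06 and 0.62 against fresh control in vitrification, vitrification I and vitrification II, and by 0.68 in vitrification II against vitrification I. Log2 changes below are given relative to that median, ± SE, on the log2(FPKM + 1) scale, which understates changes of low genes. The adjusted p refers to the fitted change, which is the relative change plus the shift. The 3 comparisons with fresh control share the same control libraries.

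In vitrification against fresh control no member was called higher or lower, where 1.25% and 0.117% of all genes were. At an unadjusted p under 0.05, 17 of 54 members were higher and 2 lower, beside 15.2% and 2.96% of all genes. In vitrification I, 6 of 54 members rose and 6 fell, close to the shares of 8.85% and 9.77% over all genes. In vitrification II, 10 rose and 1 fell against fresh control, and 24.6% and 1.09% of all genes did. Between vitrification II and vitrification I, 15 were higher and 2 lower in vitrification II, beside 34.7% and 3.75% of all genes. The F test over the 4 groups called 23 of 54 members (42.6%) and 42.7% of all genes. The share of members called was near that of all genes in vitrification I and by the F test. Rises in vitrification II made up 18.5% of the members, under the 24.6% of all genes, with no test of that difference.

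The median change of the members relative to all genes came to 0.20, 0.22 and 0.04 in vitrification, vitrification I and vitrification II, and to -0.12 in vitrification II against vitrification I. A related measure, the median log2 level of the members less that of all genes in a library, had a pooled SD of 0.128 between libraries of a group. That is a spread of levels in separate libraries, not of the changes above. Members ran from -1.64 (KAT8) to 1.58 (SMARCD2) in vitrification, from -2.08 (SMARCB1) to 1.90 (SUZ12) in vitrification I and from -2.24 (KAT8) to 1.04 (KDM4A) in vitrification II.

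Separation of the libraries was also counted, apart from any test. In vitrification 21 members had both libraries above every control and 5 below, where 25.5% and 11.5% of all genes did. In vitrification I the counts were 16 and 11 (17.3% and 18.9% of all genes), in vitrification II 29 and 3 (44.0% and 3.41%), and in vitrification II against vitrification I 21 and 5 (42.6% and 7.07%). The highest group mean lay in fresh control for 6 members, vitrification for 12, vitrification I for 5 and vitrification II for 31, beside 10.9%, 15.5%, 15.2% and 58.4% of all genes.

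Counts of rises in vitrification II depended on the scaling. With quantile normalization 0 members rose and 4 fell against fresh control (57.2% of all calls were rises, against 95.7% without it), and with scaling to the total outside the mitochondrial genome 1 rose and 1 fell (91.3%). Quantile normalization ended the calls of all 10 members that rose there (0.0532 to 0.745), and the non-mitochondrial total those of all but KDM4A (0.0564 to 0.125). In vitrification II against vitrification I the same 2 scalings gave 5 higher and 10 lower (48.2%, against 90.2% unscaled), and 7 higher and 3 lower (68.9%). Under quantile normalization the higher members were PRMT1, PRMT5, SMARCB1, HDAC3 and SETD4, and the non-mitochondrial total added HDAC10 and KAT7. The 10 lower members under quantile normalization included SMARCC1 (-1.50, 0.00798), SUZ12 (-1.48, 0.00839), KAT8 (-1.41, 0.0124), CREBBP (-1.05, 0.0320) and SMARCE1 (-1.02, 0.0108). None of these was called between the groups without it. In vitrification I against fresh control they gave 9 higher and 6 lower (52.5%, against 47.5% unscaled), and 9 higher and 4 lower (72.8%). Leaving out fresh control replicate 2 or 3 reduced the rises in vitrification II from 10 to 1 or 2, and leaving out vitrification II replicate 1, 2 or 3 to 3, 4 or 5. Rises over all genes went from 2319 to 976 or 1190, and to 1596, 1646 or 1432, in the same order. The rises in vitrification I went from 6 to 3, 1 or 2 without fresh control replicate 1, 2 or 3 and to 2 without vitrification I replicate 1, and the 6 falls became 9 without vitrification I replicate 2. Over all genes these rises went from 833 to 821, 374 or 447 and to 552, and the falls from 919 to 1296. The F test called 12, 10 or 15 members without fresh control replicate 2, fresh control replicate 3 or vitrification I replicate 1. Over all genes it called 2966, 2983 or 3228, against 4016 with every library. The 2 members lower in vitrification II than in vitrification I became 0 when vitrification II replicate 2 was left out and 1 when vitrification I replicate 1 was. Over all genes the 353 lower became 209 and 253. With no filter on low values, which brings many more genes into the adjustment, the calls left were KDM1A, PRMT7 and HDAC8 in vitrification I, KDM4A and SETD5 in vitrification II, and 11 of 17 between these groups, where KDM1A, KDM3A, KDM4C, PRMT3, HDAC5 and HDAC8 lost theirs (0.0592 to 0.119).

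**Figure D2:**
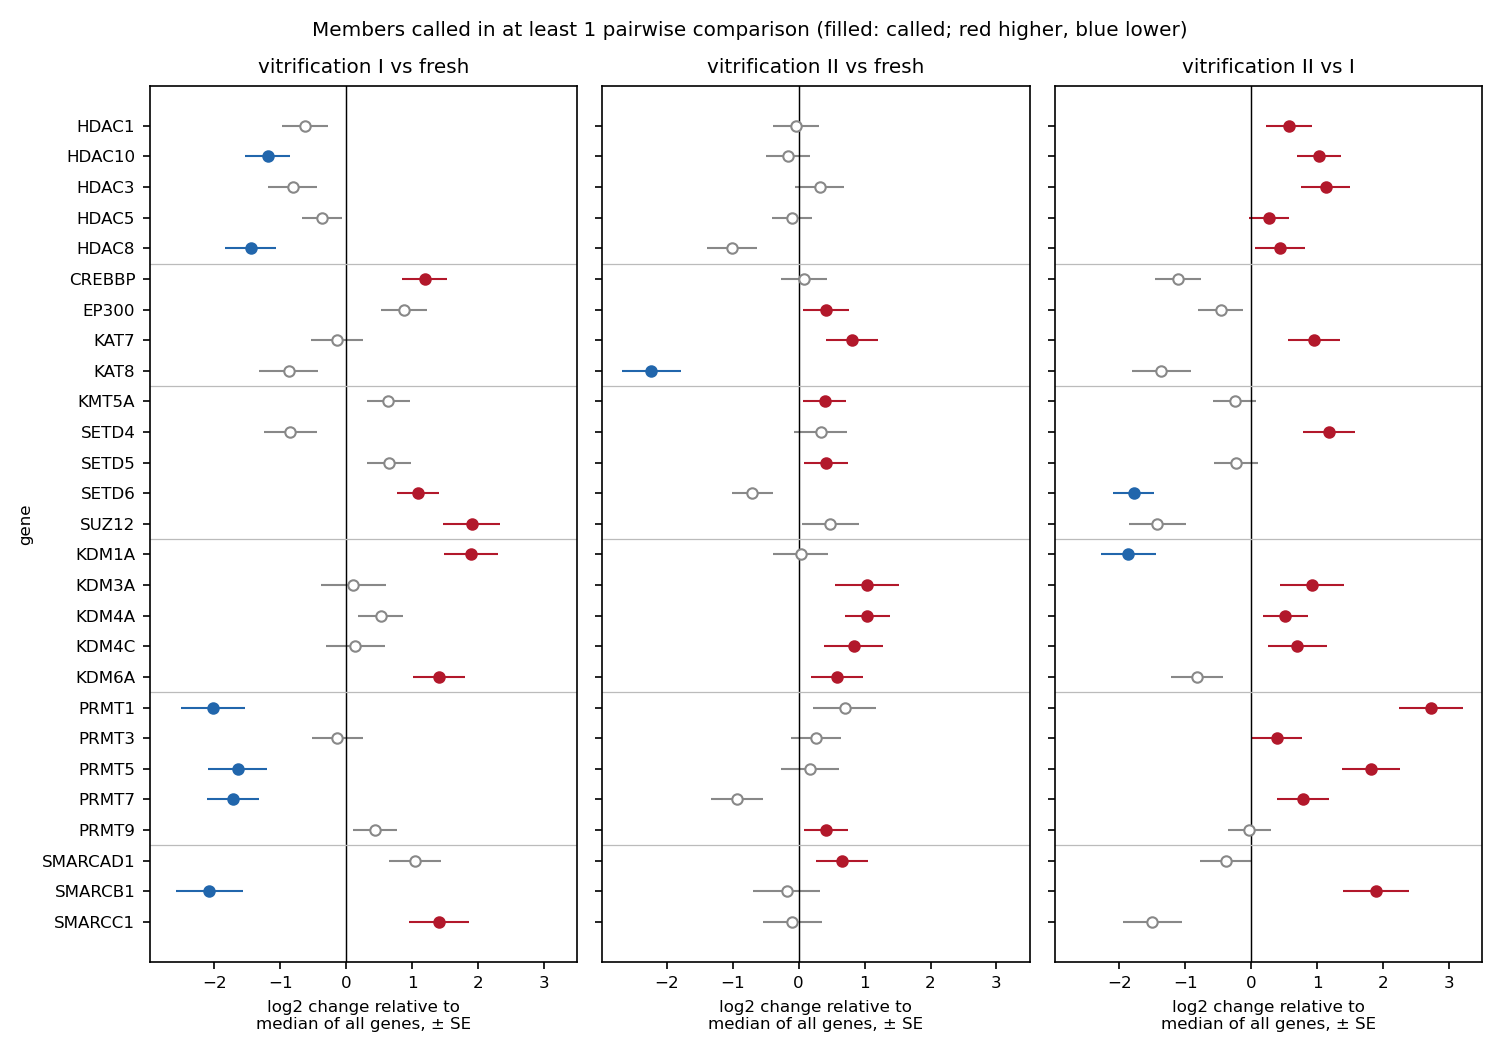
Log2 change relative to the median of all genes (horizontal axis, bars show the SE) for the 27 members called in at least 1 comparison, grouped by role, in vitrification I and vitrification II against fresh control and in vitrification II against vitrification I; filled points were called, red higher and blue lower. PRMT1 lies at -2.02 in the first panel and at 2.72 in the last, and KDM1A at 1.89 and -1.86.

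Arginine methyltransferases modify histones and many RNA-binding proteins, and 6 of the 7 members passed the filter. In vitrification I, 3 of 6 (PRMT1, PRMT5 and PRMT7) fell and none rose, where 9.77% of all genes fell. In vitrification II 4 of 6 were higher than in vitrification I, where 34.7% of all genes were, and this count was 2 with quantile normalization and 2 with the non-mitochondrial total. PRMT1 had an FPKM of 30.0, 20.9 and 29.6 in fresh control, 22.9 and 13.2 in vitrification, 2.57, 10.4 and 5.63 in vitrification I, and 109.9, 80.1 and 34.7 in vitrification II. Every vitrification I library was below, and every vitrification II library above, all libraries of fresh control. The change was -2.02 ± 0.48 in vitrification I (adjusted p = 0.00930) and 2.72 ± 0.48 in vitrification II against vitrification I (0.000161). Against fresh control, PRMT1 in vitrification II was not called, at 0.70 ± 0.48 (0.0561), but was called without vitrification I replicate 1, vitrification I replicate 2 or vitrification II replicate 3 (0.0270 to 0.0438).

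PRMT5, the main enzyme of symmetric arginine methylation, had an FPKM of 18.7, 14.4 and 13.1 in fresh control, 10.0 and 15.3 in vitrification, 5.58, 7.11 and 1.31 in vitrification I, and 26.6, 35.0 and 21.4 in vitrification II. It fell in vitrification I by 1.64 on the log2 scale (SE 0.45, adjusted p = 0.0161), and was 1.82 ± 0.45 higher in vitrification II than in vitrification I (0.000716). The order of the groups was that of PRMT1, with no overlap between vitrification I, fresh control and vitrification II. PRMT7, which makes monomethylarginine, had an FPKM of 34.6, 35.2 and 47.4 in fresh control, 16.5 and 15.9 in vitrification, 7.29, 20.6 and 7.55 in vitrification I, and 36.9, 31.9 and 25.4 in vitrification II. Both vitrification libraries and all vitrification I libraries lay below every control, and the change was called in vitrification I (-1.72 ± 0.39, adjusted p = 0.00738) but not in vitrification (-1.39 ± 0.44, 0.155). In vitrification II, PRMT7 overlapped fresh control and was 0.79 ± 0.39 above vitrification I (0.00913).

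PRMT9 rose in vitrification II against fresh control by 0.41 ± 0.33 (adjusted p = 0.0333), from 0.658 to 0.805 in the controls to 1.95 to 3.61. PRMT3, which methylates a ribosomal protein, was 0.40 ± 0.38 higher in vitrification II than in vitrification I (0.0369). PRMT6 was called in no comparison. The falls of PRMT1 and PRMT7 in vitrification I and the differences of PRMT1, PRMT5 and PRMT7 between vitrification II and vitrification I kept their calls without any 1 library. The fall of PRMT5 did not without vitrification I replicate 3 (0.0522). The PRMT9 rise ended without any control, vitrification II replicate 2 or replicate 3 (0.0571 to 0.122, and a change of 0.22 without replicate 3), and the PRMT3 difference without fresh control replicate 3, vitrification I replicate 1 or 3, or any vitrification II library (0.0538 to 0.110). PRMT7 was not called between vitrification II and vitrification I under quantile normalization (0.131) or the non-mitochondrial total (0.0991), and PRMT5 not in vitrification I under the latter (0.0547).

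**Figure D3:**
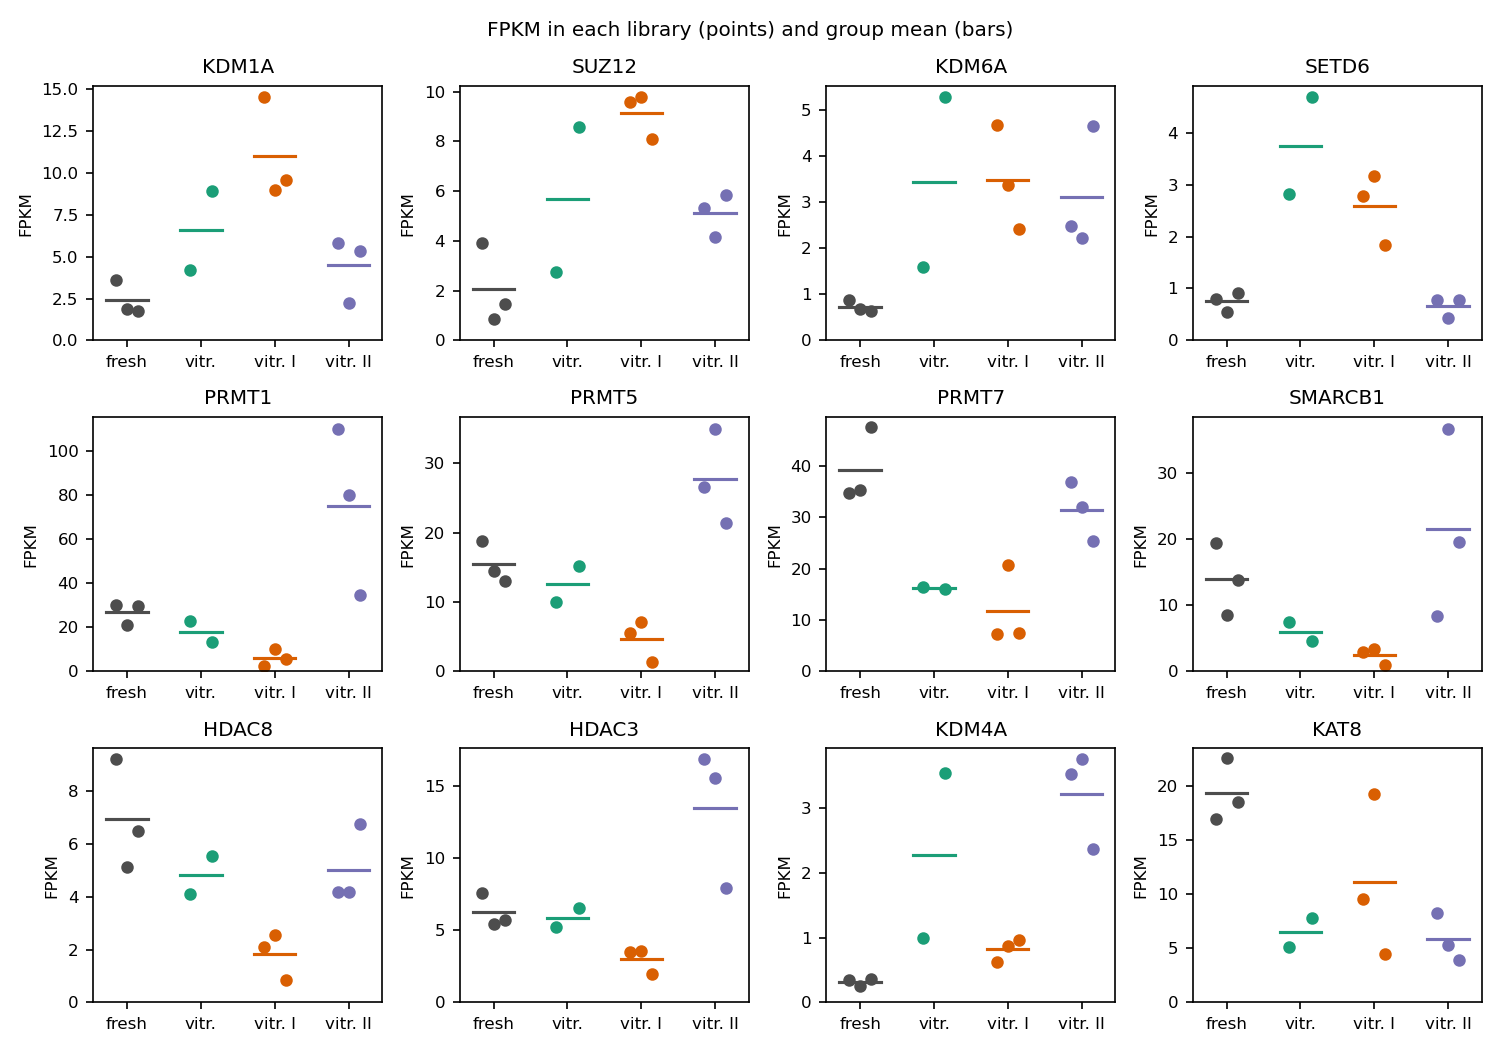
FPKM on a linear axis from 0 for 12 members in each library (points) with the group mean (horizontal bars), in fresh control, vitrification, vitrification I and vitrification II. All vitrification I libraries lie below the others for PRMT1, PRMT5, SMARCB1, HDAC8 and HDAC3, and all lie above the controls for KDM1A, SUZ12, KDM6A and SETD6.

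Of the 11 deacetylases 7 passed the filter. None was called in vitrification or in vitrification II against fresh control, 2 fell in vitrification I (9.77% of all genes did), and 5 of 7 were higher in vitrification II than in vitrification I (34.7% of all genes were). The last count was 1 with quantile normalization and 2 with the non-mitochondrial total. HDAC8, a class I enzyme that acts on cohesin, had an FPKM of 9.23, 5.12 and 6.51 in fresh control, 4.11 and 5.56 in vitrification, 2.12, 2.54 and 0.831 in vitrification I, and 4.17, 4.18 and 6.76 in vitrification II. It was lower in all vitrification I libraries than in any other, with a change of -1.45 ± 0.38 (adjusted p = 0.0135). HDAC10, a polyamine deacetylase, was low in vitrification I, at 0.0961, 0 and 0.179, beside 0.668, 1.99 and 2.52 in fresh control, 1.95 and 1.98 in vitrification, and 2.76, 1.85 and 3.24 in vitrification II. Its change was -1.19 ± 0.34 in vitrification I (0.0182) and 1.03 ± 0.34 in vitrification II against vitrification I (0.00140).

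HDAC3, the catalytic subunit of the NCoR and SMRT corepressor complexes, had an FPKM of 7.61, 5.47 and 5.74 in fresh control, 5.23 and 6.53 in vitrification, 3.48, 3.55 and 2.00 in vitrification I, and 16.9, 15.6 and 7.96 in vitrification II. It was 1.13 ± 0.37 higher in vitrification II than in vitrification I (adjusted p = 0.00185), and its lower level in vitrification I against fresh control was not called (-0.81 ± 0.37, 0.115). HDAC1 and HDAC2, share the NuRD and Sin3 complexes. HDAC1 had an FPKM of 33.3, 22.1 and 21.3 in fresh control, 11.9 and 22.8 in vitrification, 13.7, 17.1 and 15.0 in vitrification I, and 34.3, 36.2 and 43.9 in vitrification II. It was 0.58 ± 0.35 higher in vitrification II than in vitrification I (0.0112). HDAC2 stood at 40.0, 23.6 and 29.8, 11.4 and 20.8, 20.5, 19.7 and 8.57, and 21.7, 20.2 and 16.8 in the same order, so that every vitrified library was below every control. None of its changes was called, at -1.24 ± 0.40 in vitrification II (0.258), -1.12 ± 0.44 in vitrification (0.283) and -0.89 ± 0.40 in vitrification I (0.106), though quantile normalization called the first (-1.27, 0.0252).

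HDAC8 and HDAC5 were also higher in vitrification II than in vitrification I, by 0.44 ± 0.38 (adjusted p = 0.0299) and 0.27 ± 0.31 (0.0233). The HDAC3 difference was called under every alternative tried, and the fall of HDAC8 without any 1 library, though not with the non-mitochondrial total (0.0566). The fall of HDAC10 ended without fresh control replicate 2 or 3 or vitrification I replicate 1 (0.0519 to 0.100). The HDAC8 difference ended without vitrification I replicate 3 or any vitrification II library (0.0515 to 0.120), and fell to 0.28 without the first and 0.26 without vitrification II replicate 3. HDAC5 lost its call without vitrification I replicate 1 or 3 or vitrification II replicate 1 or 3 (0.0584 to 0.0741). Quantile normalization ended the calls of HDAC10 (0.0858) and HDAC1 (0.210) between vitrification II and vitrification I, and the non-mitochondrial total that of HDAC1 (0.235).

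All 9 acetyltransferases passed the filter. KAT8, which acetylates histone H4 lysine residues in the MSL and NSL complexes, fell in vitrification II against fresh control, the only member to do so without quantile normalization. Its FPKM was 17.0, 22.6 and 18.6 in fresh control, 5.16 and 7.85 in vitrification, 9.59, 19.3 and 4.51 in vitrification I, and 8.29, 5.27 and 3.96 in vitrification II. All libraries of vitrification and vitrification II lay below all controls, while vitrification I replicate 2 reached the control range. The change was -2.24 ± 0.45 in vitrification II (adjusted p = 0.0173), -1.64 ± 0.50 in vitrification (0.134) and -0.87 ± 0.45 in vitrification I (0.156). The fall in vitrification II was also called with quantile normalization (0.0059) and the non-mitochondrial total (0.0202). It ended without fresh control replicate 2 or 3 or vitrification II replicate 2 or 3 (0.0503 to 0.0725), and with no filter on low values (0.0762). In vitrification I, KAT8 was called lower when replicate 2 was left out (-1.22, 0.0305).

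KAT7, the catalytic subunit of HBO1 complexes, went the other way in vitrification II. Its FPKM was 0.876, 0.994 and 1.87 in fresh control, 2.52 and 5.34 in vitrification, 1.32, 1.24 and 0.352 in vitrification I, and 5.54, 3.02 and 7.04 in vitrification II. It rose in vitrification II against fresh control (0.81 ± 0.39, adjusted p = 0.0166) and against vitrification I (0.95 ± 0.39, 0.00496), without overlap in either. The first rise ended without fresh control replicate 2 or vitrification II replicate 1 or 3 (0.0504 to 0.0712), and the second with quantile normalization (0.0778).

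The paralogous coactivators EP300 and CREBBP were both under 1 in every control and mostly above 1 after vitrification. CREBBP had an FPKM of 0.255, 0.438 and 0.724 in fresh control, 2.00 and 4.33 in vitrification, 1.83, 1.60 and 3.42 in vitrification I, and 1.01, 1.61 and 1.57 in vitrification II. EP300 had 0.516, 0.426 and 0.426, then 1.85 and 3.47, then 1.97, 2.37 and 0.682, then 2.30, 1.39 and 2.36. For both genes no vitrified library fell as low as the highest control. CREBBP rose in vitrification I (1.19 ± 0.34, adjusted p = 0.0335) and EP300 in vitrification II (0.41 ± 0.35, 0.0396), and the remaining changes were not called (CREBBP 1.27 ± 0.38 in vitrification, 0.0667, and 0.08 ± 0.34 in vitrification II, 0.140; EP300 1.11 ± 0.39 in vitrification, 0.0923, and 0.88 ± 0.35 in vitrification I, 0.112). CREBBP lost its call without any control or vitrification I replicate 1 or 3 (0.0577 to 0.110), and EP300 without any control or vitrification II replicate 1 or 3 (0.0596 to 0.121). In vitrification I, EP300 was called higher with quantile normalization (0.0297) and without vitrification I replicate 3 (0.0472). KAT2A, the acetyltransferase of SAGA, differed among the groups by the F test (0.0406) with no pairwise call, and was at 2.53 and 2.65 in vitrification against 0.312 to 2.04 elsewhere. KAT5, the TIP60 catalytic subunit, was called in no comparison, with 4.10 to 8.29 in all libraries but vitrification I replicate 3 (1.47).

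Among the 19 lysine methyltransferases and PRC2 genes, 14 passed the filter. In vitrification I 2 rose (SUZ12 and SETD6), in vitrification II 2 rose (SETD5 and KMT5A), and between these groups 1 was higher and 1 lower in vitrification II (SETD4 and SETD6). Over all genes 8.85% rose in vitrification I and 24.6% in vitrification II, and between these groups 34.7% were higher and 3.75% lower in vitrification II. SUZ12, the PRC2 scaffold, had an FPKM of 3.92, 0.861 and 1.48 in fresh control, 2.74 and 8.59 in vitrification, 9.61, 9.78 and 8.10 in vitrification I, and 5.31, 4.18 and 5.85 in vitrification II. All libraries of vitrification I and vitrification II were above the highest control. The change was 1.90 ± 0.43 in vitrification I (adjusted p = 0.0102), and was not called in vitrification II (0.48 ± 0.43, 0.0732). Leaving out fresh control replicate 2 ended the call in vitrification I (0.0580), as did dropping the filter on low values (0.0531).

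The other PRC2 subunits were not called in vitrification I. EED had an FPKM of 76.0, 13.9 and 17.3 in fresh control, 15.1 and 24.1 in vitrification, 28.2, 41.5 and 20.4 in vitrification I, and 49.6, 37.5 and 56.2 in vitrification II. The catalytic subunit EZH2 had 2.92, 0.805 and 0.716, then 2.70 and 2.58, then 4.45, 3.27 and 0.301, then 5.03, 6.06 and 3.51. For all 3 subunits fresh control replicate 1 was the highest control, and for EED it was the highest library of the series. EED and EZH2 were called in no comparison, with changes in vitrification II of 0.18 ± 0.52 (adjusted p = 0.265) and 0.71 ± 0.50 (0.0606). Without fresh control replicate 1 all 3 were called higher in vitrification II: EED by 0.82 (0.0128), EZH2 by 0.99 (0.0258) and SUZ12 by 0.78 (0.0208). In that setting 2507 of the 9411 genes and 14 of the 54 members were called higher, against 2319 and 10 with every library. Under the other alternatives EED and SUZ12 were not called in this comparison.

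SETD6, which methylates the RELA subunit of NF-kappaB, had unlike levels in the vitrified groups. Its FPKM was 0.803, 0.541 and 0.917 in fresh control, 2.81 and 4.69 in vitrification, 2.77, 3.17 and 1.83 in vitrification I, and 0.770, 0.431 and 0.784 in vitrification II. Vitrification II lay within or below the control range, and the other vitrified libraries were all above it. SETD6 rose in vitrification I (1.09 ± 0.32, adjusted p = 0.0353), was not called in vitrification (1.23 ± 0.35, 0.0584), and was lower in vitrification II than in vitrification I (-1.78 ± 0.32, 0.0135). The rise ended without any control or vitrification I replicate 1 or 2 (0.0623 to 0.137) and in the fit with the replicate number as a block (0.0633), and the difference between vitrification II and vitrification I without vitrification II replicate 2 (0.0540).

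SETD4 was 1.18 ± 0.40 higher in vitrification II than in vitrification I (adjusted p = 0.00241), at 4.42, 3.30 and 4.76 against 0.231, 1.26 and 0, and this held under every alternative tried. Fresh control, at 2.95, 0.946 and 1.41, lay below vitrification II and overlapped vitrification I. SETD5, a SET-domain protein of chromatin, had an FPKM of 2.44, 1.39 and 1.98 in fresh control, 5.81 and 8.16 in vitrification, 3.14, 4.16 and 2.88 in vitrification I, and 4.79, 5.37 and 4.70 in vitrification II. Every vitrified library exceeded every control. It was called in vitrification II (0.41 ± 0.33, 0.0341), and not in vitrification (1.26 ± 0.37, 0.0599) or vitrification I (0.65 ± 0.33, 0.234). KMT5A, which monomethylates H4K20, showed the same absence of overlap, with 0.370 to 1.16 in fresh control and 1.26 to 3.01 after vitrification, and was called in vitrification II (0.39 ± 0.32, 0.0329). Both rises ended without fresh control replicate 2 or 3 and without vitrification II replicate 1 or 2, and that of SETD5 also without replicate 3 (0.0718 to 0.149). The KMT5A change fell to 0.22 without vitrification II replicate 2. SETD2, the enzyme of H3K36 trimethylation, was not called, at 1.14 to 1.71 in fresh control and 1.64 to 6.42 in the vitrified libraries.

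Of the 15 demethylases 8 passed, and none was called lower than fresh control in any vitrified group. Over all genes only 0.117%, 9.77% and 1.09% were called lower in vitrification, vitrification I and vitrification II, so that absence is no trait of demethylases. Relative to the median of all genes, 8 of 8 were higher in vitrification, 8 of 8 in vitrification I and 7 of 8 in vitrification II, in comparisons that share the control libraries. With quantile normalization the counts above 0 were 6, 8 and 6. KDM4A and KDM6A were under an FPKM of 1 in every control and passed the filter only through vitrified libraries. The filter therefore favoured rises in these counts, which leave out the demethylases below it and are no result about the family. KDM1A, the flavin-dependent H3K4 demethylase LSD1, had an FPKM of 3.60, 1.85 and 1.78 in fresh control, 4.20 and 8.94 in vitrification, 14.5, 8.97 and 9.59 in vitrification I, and 5.82, 2.26 and 5.36 in vitrification II. Vitrification I lay above every other library. KDM1A rose in vitrification I by 1.89 ± 0.41 (adjusted p = 0.00832), under every alternative tried, and was lower in vitrification II than in vitrification I (-1.86 ± 0.41, 0.0355). The latter ended without vitrification I replicate 1 or 3 or vitrification II replicate 2 (0.0566 to 0.166).

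KDM6A, the X-linked H3K27 demethylase UTX, had an FPKM of 0.875, 0.681 and 0.638 in fresh control, 1.59 and 5.28 in vitrification, 4.66, 3.36 and 2.41 in vitrification I, and 2.47, 2.23 and 4.64 in vitrification II. Every vitrified library exceeded every control. It was the only member that rose both in vitrification I (1.41 ± 0.39, adjusted p = 0.0278) and in vitrification II (0.58 ± 0.39, 0.0357), while the change in vitrification was not called (1.04 ± 0.44, 0.150). The rise in vitrification I ended without fresh control replicate 2 or 3 or vitrification I replicate 1 (0.0869 to 0.0980). The rise in vitrification II ended without fresh control replicate 2 or 3 or any vitrification II library (0.0508 to 0.141), with a change of 0.33 without vitrification II replicate 3.

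The remaining demethylase calls were in vitrification II and concerned enzymes of H3K9 and H3K36. KDM4A had an FPKM of 0.344, 0.255 and 0.355 in fresh control, 0.995 and 3.55 in vitrification, 0.618, 0.873 and 0.968 in vitrification I, and 3.53, 3.76 and 2.37 in vitrification II. It rose in vitrification II against fresh control (1.04 ± 0.34, adjusted p = 0.00387) and vitrification I (0.52 ± 0.34, 0.0125), and no library left out ended either call. KDM3A, an H3K9 demethylase, had 4.03, 0.782 and 2.03 in fresh control, 2.06 and 5.08 in vitrification, 1.29, 3.77 and 1.74 in vitrification I, and 13.9, 9.14 and 4.61 in vitrification II. Its changes were 1.03 ± 0.49 (0.0229) and 0.93 ± 0.49 (0.0177). KDM4C reached 7.78 and 5.28 in vitrification II replicates 2 and 3 but 1.52 in replicate 1, within the range of vitrification I (0.657 to 1.79). It was called against fresh control (0.83 ± 0.45, 0.0279) and vitrification I (0.70 ± 0.45, 0.0242).

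The KDM3A calls ended without fresh control replicate 2 or 3 or vitrification II replicate 1 or 2 (0.0615 to 0.122) and, against vitrification I, without its replicate 1 or 3 or vitrification II replicate 1 (0.0560 to 0.0820). Those of KDM4C ended without fresh control replicate 2 or 3 or vitrification II replicate 2 or 3 (0.0560 to 0.117), and against vitrification I without its replicate 1 or 2 or vitrification II replicate 2 or 3 (0.0626 to 0.110). The KDM4C change against fresh control was 0.42 without vitrification II replicate 2 and 1.37 without replicate 1, and against vitrification I it ran from 0.30 without vitrification II replicate 2 to 1.24 without replicate 1, with 0.46 and 1.07 without vitrification I replicates 2 and 3. With quantile normalization KDM4A was not called in vitrification II against fresh control (0.0532) or vitrification I (0.283). KDM5B, an H3K4 demethylase, was called in no comparison, at 2.42 to 2.80 in fresh control and 2.33 to 6.98 in the vitrified libraries.

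Of 12 remodelling genes 10 passed. SMARCC1 rose and SMARCB1 fell in vitrification I, SMARCAD1 rose in vitrification II, and SMARCB1 was higher in vitrification II than in vitrification I. SMARCB1 and SMARCC1 are core subunits of the same SWI/SNF (BAF) complex. SMARCB1 had an FPKM of 19.5, 8.56 and 13.9 in fresh control, 7.51 and 4.54 in vitrification, 2.94, 3.40 and 0.957 in vitrification I, and 8.32, 36.7 and 19.5 in vitrification II. It fell in vitrification I by 2.08 on the log2 scale (SE 0.50, adjusted p = 0.0102), and was 1.90 ± 0.50 higher in vitrification II than in vitrification I (0.00137). SMARCC1 had 3.07, 1.75 and 2.32 in fresh control, 6.46 and 10.5 in vitrification, 9.22, 11.2 and 3.87 in vitrification I, and 7.60, 2.80 and 2.41 in vitrification II. All libraries of vitrification and vitrification I were above the controls for SMARCC1 and below them for SMARCB1. The SMARCC1 rise was 1.41 ± 0.45 in vitrification I (0.0496) and 1.29 ± 0.50, not called, in vitrification (0.132).

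The SMARCB1 difference between vitrification II and vitrification I was called under every alternative tried, and its fall in vitrification I without any 1 library, though not with no filter on low values (0.0740). The SMARCC1 rise was at the threshold and ended without any library other than vitrification I replicate 3 and vitrification II replicate 1 (0.0548 to 0.156). SMARCAD1, a remodelling ATPase of heterochromatin maintenance, rose in vitrification II by 0.66 ± 0.39 (adjusted p = 0.0283), from 1.09 to 1.65 in fresh control to 3.41 to 7.02. That call ended without fresh control replicate 2 or 3 or vitrification II replicate 1 or 3 (0.0629 to 0.113), with a change of 0.43 without replicate 3. The ATPases SMARCA4 (BRG1) and SMARCA5 (SNF2H, of the ISWI class) were called in no comparison. SMARCA4 ranged from 5.60 to 6.37 in fresh control and from 2.22 to 13.2 in the vitrified libraries, and SMARCA5 from 13.2 to 24.3 and from 9.99 to 29.0.

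The most abundant remodelling subunit, SMARCE1, had an FPKM of 38.9, 28.7 and 31.8 in fresh control, 16.7 and 21.7 in vitrification, 27.6, 29.2 and 26.6 in vitrification I, and 28.001, 21.0 and 21.0 in vitrification II. Vitrification and vitrification II lay below every control, and no change was called (-0.94 ± 0.36, adjusted p = 0.277, and -1.11 ± 0.32, 0.267), while quantile normalization called it lower in vitrification II (-1.10, 0.0231). SMARCD2, a subunit of BAF complexes, had the largest member change in vitrification (1.58 ± 0.46, 0.0599), at 4.50 and 8.14 against 0.976 to 1.17 in fresh control, and differed among the groups by the F test (0.0286). The other members nearest to a call in vitrification were SETD6 (0.0584), SETD5 (0.0599) and CREBBP (0.0667). Without vitrification replicate 1 the group held only replicate 2, and the changes of CREBBP and KDM4A in vitrification, resting on that library, were then 1.52 and 1.44.

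Calls on low genes need the levels beside them. In vitrification I, 3 of the 6 rises (KDM6A, CREBBP and SETD6) and 1 of the 6 falls (HDAC10) had every library of the lower group under an FPKM of 1. In vitrification II against fresh control this held for 4 of 10 rises (KDM4A, KDM6A, EP300 and PRMT9), and against vitrification I for 3 of 15 (HDAC10, KDM4A and HDAC5) and for SETD6 among the 2 lower. Over all comparisons 27 of the 54 members were called at least once and 27 never. The calls that held under all alternatives were KDM1A and PRMT7 in vitrification I and PRMT1, PRMT5, SMARCB1, HDAC3 and SETD4 between vitrification II and vitrification I. None of the calls in vitrification II against fresh control did.

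The ratio of 2 genes within a library does not change when a common factor scales the whole library, though quantile normalization can change it. Ratios were computed for pairs of paralogs and of subunits of 1 complex, which were chosen after their values were seen and carry no test. SMARCC1 to SMARCB1 was 0.158 to 0.205 in fresh control, 0.861 and 2.32 in vitrification, 3.14 to 4.04 in vitrification I and 0.0762 to 0.913 in vitrification II. SUZ12 to EED was 0.0516 to 0.0856, 0.182 and 0.356, 0.235 to 0.396, and 0.104 to 0.111 in the same order. Both ratios were higher in each vitrification and vitrification I library than in any control. For the ISWI ATPases SMARCA1 (SNF2L) and SMARCA5, the ratio was 0.270 to 0.582, 0.359 and 0.416, 0.589 to 1.23, and 0.120 to 0.462, with vitrification I above all other libraries. SMARCA1 itself had an FPKM of 15.6, 25.0 and 9.41 in vitrification I and 5.46 to 7.66 in fresh control, a change that was not called (1.20 ± 0.46, adjusted p = 0.0942).

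KAT7 to KAT8 was 0.0440 to 0.101 in fresh control, 0.488 and 0.680 in vitrification, 0.0643 to 0.138 in vitrification I and 0.572 to 1.78 in vitrification II, so every library of vitrification and vitrification II was above every library of fresh control and vitrification I. HDAC1 to HDAC2 was 0.715 to 0.938, 1.05 and 1.10, 0.669 to 1.76, and 1.58 to 2.62. PRMT1 to PRMT7 was 0.592 to 0.866, 0.827 and 1.39, 0.353 to 0.745, and 1.36 to 2.98. In these last ratios vitrification II lay above every control. For the paralogs EP300 and CREBBP the ratio was 0.588 to 2.02, 0.801 and 0.928, 0.199 to 1.49, and 0.864 to 2.28, and every vitrified group overlapped fresh control.

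Summed enzymes of opposite action on a mark were compared in the same way, members below the filter included. H3K4 methyltransferases (KMT2A, KMT2B, KMT2C, SETD1A and SETD1B) to demethylases (KDM1A, KDM1B, KDM5A and KDM5B) gave 0.136 to 0.218 in fresh control, 0.322 and 0.404 in vitrification, 0.159 to 0.205 in vitrification I and 0.149 to 0.165 in vitrification II, so only the vitrification libraries stood above the controls. H3K27 demethylases (KDM6A and KDM6B) to PRC2 subunits gave 0.0116 to 0.0646, 0.0979 and 0.172, 0.0729 to 0.113, and 0.0429 to 0.0788, with vitrification and vitrification I above every control. EED made up most of the PRC2 sum, with 76.0 of 82.9 FPKM in fresh control replicate 1. The catalytic EZH2 to KDM6A gave 1.12 to 3.33, 0.488 and 1.69, 0.124 to 0.973, and 0.757 to 2.72, so only vitrification I lay apart from the controls. SETD2 and SETD3 to H3K36 demethylases (KDM2A, KDM4A, KDM4B and KDM4C) gave 1.38 to 2.93, 1.08 and 1.23, 1.22 to 3.04, and 0.480 to 1.20, with vitrification and vitrification II below every control. SETD3 held 2.16 of the 3.61 FPKM of the first sum in fresh control replicate 2. Its action on H3K36 was assumed, and NSD1, NSD3 and ASH1L were not in the sum, so this ratio is no full balance for H3K36. These are ratios of transcripts, and the marks themselves were not measured.

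**Figure D4:**
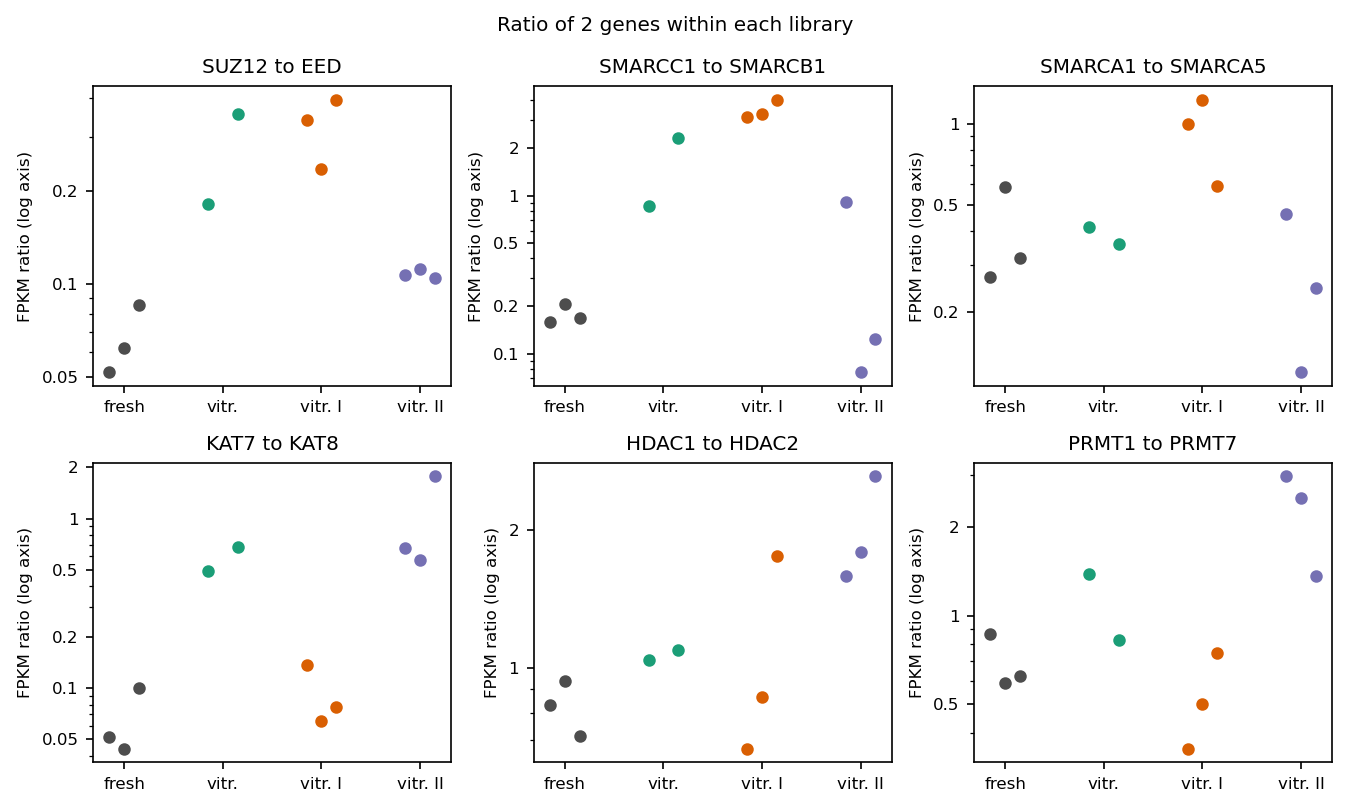
Ratio of the FPKM of 2 genes within each library (vertical axis, log scale), with 1 point per library in fresh control, vitrification, vitrification I and vitrification II. SMARCC1 to SMARCB1 is at 3.14 or more in all vitrification I libraries and at 0.205 or less in all controls, and KAT7 to KAT8 is higher in every vitrification and vitrification II library than in the other groups.

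Other genes of the same machinery, outside the families above, were taken from a list of 109, of which 103 were in the table and 88 passed the filter. In vitrification 3 of 88 rose and none fell, in vitrification I 6 rose and 6 fell, in vitrification II 23 rose and none fell, and 28 were higher and 3 lower in vitrification II than in vitrification I. Over all genes the shares called higher and lower were 1.25% and 0.117%, 8.85% and 9.77%, 24.6% and 1.09%, and 34.7% and 3.75% in the same order. The rises in vitrification II in both comparisons lay near those shares and are no result about chromatin genes. The median relative changes of the 88 were 0.34, 0.16, 0.06 and -0.26. The rises in vitrification were those of TRIM28, the KAP1 corepressor (1.77 ± 0.45, adjusted p = 0.0459), the BAF subunit ARID1A (1.60 ± 0.40, 0.0439) and the NuRD subunit GATAD2A (1.60 ± 0.38, 0.0362). All 3 ended without any 1 control, vitrification replicate 2 or any vitrification II library, and TRIM28 also without vitrification replicate 1 (0.0502 to 0.433). The fit with the replicate number as a block (0.0696 to 0.0888) and the fit of only the 2 groups (0.0865 to 0.0937) also ended all 3. A pseudocount of 0.1 ended TRIM28 (0.0682) and ARID1A (0.0688), and quantile normalization ARID1A (0.0532).

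In vitrification I the largest changes were in RBBP5, a core subunit of H3K4 methyltransferase complexes (2.61 ± 0.44, adjusted p = 0.00175), in AEBP2, a PRC2 cofactor (2.39 ± 0.38, 0.00123), in WDR5, which shares the complexes of RBBP5 (-2.08 ± 0.38, 0.00227), and in the NAD-dependent deacetylase SIRT1 (1.96 ± 0.44, 0.00958). Mean FPKM of RBBP5 was 2.89 ± 0.521 in fresh control and 24.6 ± 16.5 in vitrification I (SD, n = 3), and that of WDR5 was 12.7 ± 1.56 and 2.25 ± 1.30. These subunits of 1 complex thus moved in opposite directions, and both calls held under every alternative tried. That of SIRT1 ended with no filter on low values (0.0531). In vitrification II against fresh control the bromodomain protein BRD2 (1.92 ± 0.39, 0.000712), the histone chaperone ASF1B (1.85 ± 0.49, 0.00314), RBBP5 (1.10 ± 0.44, 0.0121) and the heterochromatin protein CBX1 (1.05 ± 0.36, 0.00507) rose most. Only BRD2 of these 4 was called with quantile normalization (ASF1B 0.0592, RBBP5 0.230, CBX1 0.139), and RBBP5 also lost its call without fresh control replicate 2 (0.0540) and with no filter (0.0562). Between vitrification II and vitrification I the largest rises were in ASF1B (2.88 ± 0.49, 0.000131), the BAF subunit DPF2 (2.27 ± 0.38, 8.68e-05), the helicase RUVBL2 (1.86 ± 0.48, 0.00100) and ASH2L (1.71 ± 0.41, 0.000556), all higher in vitrification II under every alternative tried. The 3 genes lower in vitrification II were SIRT1 (-2.43 ± 0.44, 0.00677), the methyl-CpG-binding NuRD subunit MBD2 (-1.95 ± 0.36, 0.0124) and the BAF subunit ARID1B (-1.83 ± 0.31, 0.0101). The calls of SIRT1 and ARID1B held under every alternative tried, and that of MBD2 ended without vitrification I replicate 1 or vitrification II replicate 2 (0.0505 to 0.0543).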

How the data were processed

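Smart-Seq2 libraries of pig parthenogenetic blastocysts were compared, 12 samples in 4 groups of 3 by the labels. Vitrification replicate 3 was not analysed here, since no column of the table carried its name. The deposited values are FPKM made by the authors, 1 value per Ensembl gene and library. Tools listed in the submitters' processing notes, with no role given, are Cufflinks 2.2.1, DESeq2, TopHat2 2.0.13 and FastQC, and the genome build is not given in the sources used here. Symbols came from a gene name table that matched 15347 of 31781 identifiers.

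FPKM were analysed as log2(FPKM + 1), the pseudocount being 1, without further scaling. The filter kept 9411 genes that reached 1 FPKM in 3 or more libraries. limma 3.58.1 in R 4.3.3 fitted 1 mean per group to all 11 libraries with a trended prior and no block, with two-sided moderated tests and an F test. Adjustment was over all genes kept, with calls at 0.05. The script was tested on simulated data. Replicate numbers are shared by the groups, but same-numbered libraries did not deviate together (r from -0.158 to 0.143 over 15 pairs, 2 of them over 0.1), so the fit is unpaired.

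Members and lists were chosen with earlier results of these data known. Genes named are the called members with up to 6 largest rises and falls per comparison, the 6 highest members, a set list of 27, and up to 4 called other chromatin genes per comparison. Genes outside this rule, such as SETD5, KMT5A, PRMT3, PRMT9, HDAC5, SMARCD2, SMARCA1, MBD2 and ARID1B, were named after their values were seen. Alternatives were a pseudocount of 0.1, no filter, quantile normalization, the non-mitochondrial total, a replicate block, only the 2 groups compared, and each library left out.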

Additional observations from a re-analysis of the deposited data

How the results depend on the processing

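Each of the 40 member calls was recomputed under 17 alternatives, giving 680 values, of which 168 lost the call and 0 changed direction. Of 1241 values for uncalled named members, 26 were called, 0 of them in the other direction. The median change of the members in vitrification was 0.44 with a pseudocount of 0.1, 0.34 with no filter and -0.0196 with quantile normalization. With no filter, 3 members were called higher in vitrification, 1 higher and 2 lower in vitrification I, 2 higher and 0 lower in vitrification II, 1 lower in vitrification II against vitrification I, and 13 by the F test, and the median changes in vitrification II were 0.60 against fresh control and 0.52 against vitrification I, where a pseudocount of 0.1 gave -0.25. Quantile normalization called 0 higher and 4 lower in vitrification II, and 5 higher and 10 lower against vitrification I; the total outside the mitochondrial genome called 1 higher and 7 higher in these comparisons. The no-filter medians covered the same 54 members, whose fitted median changes stayed at 0.39 in vitrification, 0.66 in vitrification II and 0.56 in vitrification II against vitrification I. The median of all genes went from 0.19 to 0.0459, from 0.62 to 0.0538 and from 0.68 to 0.0477 in the same order. The cause of the other differences was not tested. With the replicate number as a block, 5 members were higher and 6 lower in vitrification I, 7 and 1 in vitrification II, 14 and 2 against vitrification I, and 0 in vitrification, where calls over all genes went from 118 higher and 11 lower to 46 and 9. The block ended the calls of SETD6 in vitrification I, of EP300, KMT5A, SETD5 and KDM6A in vitrification II and of PRMT3 between the 2 groups, with those of TRIM28, ARID1A and GATAD2A in vitrification, and added EZH2 in vitrification II (0.0351). A pseudocount of 0.1 ended those of KDM4C and PRMT9 in vitrification II, and a fit of only the 2 groups those of SMARCC1 and SETD6 in vitrification I. Only 3 of 11 libraries correlated best with their own number.

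With 1 library left out, the members called higher ran from 0 to 2 in vitrification, counted while both of its libraries were kept. They ran from 1 to 7 in vitrification I, from 1 to 14 in vitrification II and from 11 to 18 in vitrification II against vitrification I. Those called lower ran from 0 to 0, from 5 to 9, from 0 to 1 and from 0 to 3 in the same order, and those called by the F test from 10 to 26. The median changes ran from 0.0127 to 0.35, 0.10 to 0.36, 0.02 to 0.08 and -0.27 to -0.0295. A vitrification group left with 1 library was assumed to vary like the others. Depth is unknown, and libraries per group (2 or 3) limit the precision.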
